A study of Arvicanthis niloticus with 28 samples.

Results

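The class II cytokine receptors examined here are the 9 subunits Il20rb, Il20ra, Il22ra1, Il10ra, Il10rb, Ifnar1, Ifnar2, Ifngr1 and Ifngr2, taken by name from a table of 18970 genes, and all 9 were found in it. They were followed in RNA-seq libraries of the whole retinal vasculature of 28 Nile rats (Arvicanthis niloticus), a diurnal rodent that is prone to diabetes, with 1 library per rat. All rats were labelled wild type and untreated, and their ages are not given in the sources used here. The pre-dropout group held 4 males, T353M, T389M, T391M and T407M, with 17.1 to 17.9 acellular capillaries per square millimeter (17.6 ± 0.366, SD, n = 4). The normal group held 8 males and 16 females with 5.90 to 14.5 per square millimeter (9.24 ± 2.56, SD, n = 24). Acellular capillaries are vessel tubes that have lost their cells, and sex is partly confounded with density, since the pre-dropout group held males alone. Random blood glucose ran from 52.0 to 443 mg/dL and exceeded 200 mg/dL in 2 pre-dropout rats (T389M and T391M) and in 3 normal rats (T370M, T392F and T446M).

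Class II cytokine receptors signal as pairs of unlike chains, and a single chain is not sufficient for a full response. In mouse and human, Il20rb pairs with Il20ra to receive IL-19, IL-20 and IL-24, or with Il22ra1 to receive IL-20 and IL-24. Il10rb is the shared partner of Il10ra (IL-10), Il22ra1 (IL-22) and Ifnlr1 (interferon lambda), while Ifnar1 with Ifnar2 receives type I interferons and Ifngr1 with Ifngr2 receives interferon gamma. The paired chains hand the signal to JAK kinases and STAT transcription factors, and interferon signalling of this kind is known in vascular endothelium. In the Nile rat annotation Ifnar2, Il10rb, Ifnar1 and Ifngr2 follow each other on a chromosome, as do Ifngr1, Il22ra2 and Il20ra, and Il22ra1 lies beside Ifnlr1.

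The libraries summed to 153116 to 10029213 counts, with 2 libraries (T410F and T448M) below 1e+06. A count of 0 allows up to 3 counts of the library, which is 0.299 to 19.6 CPM (counts per 1e+06), by counting error only. The defining markers of the endothelium Pecam1, Cdh5 and Cldn5 and of pericytes Pdgfrb and Rgs5 were counted in all 28 libraries, whereas Aif1 and Csf1r, markers of microglia and macrophages, were counted in 13 and 9. The sum of 11 endothelial markers was 19606 to 54518 TPM in pre-dropout and 12130 to 50454 TPM in normal rats, and that of 13 microglia and macrophage markers 5.10 to 45.8 TPM in pre-dropout and 0.977 to 172 TPM in normal rats. Here TPM, transcripts per 1e+06, is scaled by transcript length and serves to compare genes, and CPM, scaled between libraries by TMM, serves to compare rats.

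The interferon receptor chains and Il10rb were the abundant members, Il20rb was low, and its partner chains were at 0 in most rats. Over all 28 rats Ifnar1 had a median of 269 TPM (range 115 to 495), and it exceeded Il10rb in every rat. Il10rb had a median of 128 TPM (24.01 to 279), Ifngr1 75.8 TPM (45.9 to 151) and Ifnar2 29.4 TPM (10.1 to 111). Below them stood Ifngr2 at 5.88 TPM (0 to 23.3) and Il20rb at 5.66 TPM (0 to 25.3). The medians of Il10ra, Il20ra and Il22ra1 were 0, and their highest levels were 9.27, 5.42 and 0.154 TPM.

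Neighbours in this order were set apart where their paired difference of log2(TPM + 1) exceeded 1 SD over the rats. Ifnar1 exceeded Il10rb by 1.26 ± 0.78 (SD, n = 28), Ifngr1 exceeded Ifnar2 by 1.41 ± 0.82, Ifnar2 exceeded Ifngr2 by 2.82 ± 1.69 and Il20rb exceeded Il10ra by 1.91 ± 1.69 on this scale. Il10rb and Ifngr1 did not differ beyond their spread, with Il10rb higher in 22 rats and Ifngr1 in 6. Ifngr2 and Il20rb did not either, with Ifngr2 higher in 11 rats, Il20rb in 15 and equal values in 2, and by mean TPM their order turned round (6.59 for Ifngr2 and 7.31 for Il20rb). Il10ra, Il20ra and Il22ra1 were likewise not separated.

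**Figure D1:**
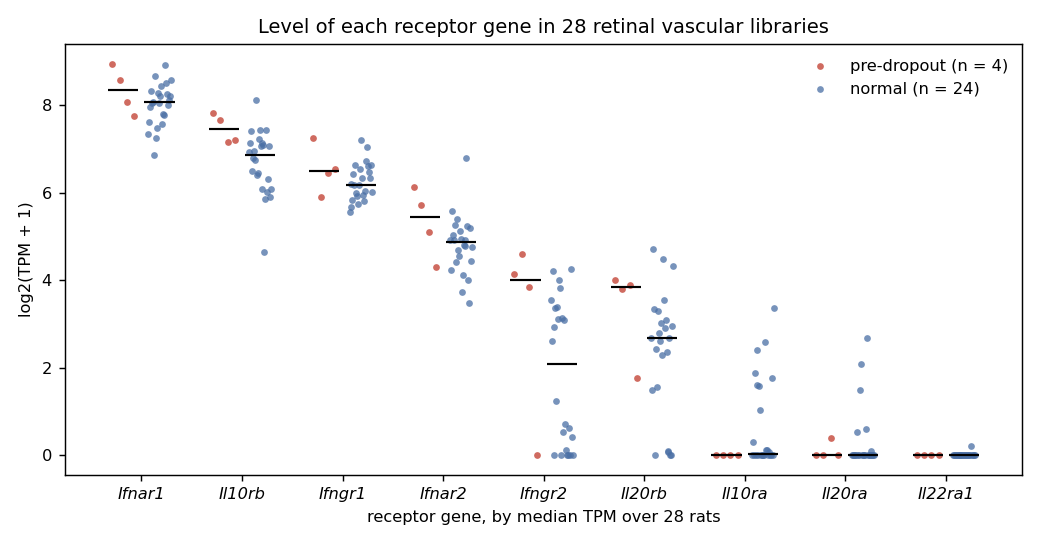
Level of each receptor gene as log2(TPM + 1), 1 point per rat, with pre-dropout rats (n = 4) left of normal rats (n = 24) and a black line at the median of each group. Ifnar1 stands highest with a median of 269 TPM over 28 rats, and Il10ra, Il20ra and Il22ra1 lie at 0 in most rats.

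Il20rb, the chain shared by both IL-20 receptors, was counted in 25 of 28 libraries, but its partners were rarely found with it. Il20ra, the partner in the type I receptor, was counted in 7 libraries, each of which also held Il20rb, so that 18 libraries held Il20rb alone and 3 held neither. Il22ra1, the partner in the type II receptor, had 1 count in 1 library (T430F). Of the 7 libraries with both Il20rb and Il20ra, 1 was pre-dropout, from the male T391M, and 6 were normal. All 6 normal ones came from females (6 of 16), against 0 of 8 normal males. In a fit of sex in normal rats that kept genes of low count, 0 of 9 members were called.

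The counts of Il20ra were 47 in T419F, 24 in T404F, 22 in T401F, 7 in T414F, 4 in T397F, 1 in T430F and, in the pre-dropout group, 2 in T391M. Per length Il20rb exceeded Il20ra in each of these 7 libraries, with a ratio of 1.38 in T419F and of up to 76.9 in the others (T430F). The ratio was 1.58 in T404F and 3.23 in T401F, and from 9.97 upwards in the rest. The 7 libraries with Il20ra were deeper than the 21 without it, with a median of 6230538 counts against 3486048.

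When 26 libraries were thinned to 1e+06 counts each, leaving out the 2 shallower ones, Il20rb was still counted in 21, Il20ra in 4 and Il22ra1 in 0. The cell type markers of the libraries also differed, and in such bulk samples fewer cells of a type and less RNA per cell cannot be told apart. The summed endothelial markers had a median of 16894 TPM in the libraries with Il20ra and 33521 TPM in those without, and the microglia and macrophage markers 82.9 TPM with Il20ra and 19.7 TPM without. Markers of other leukocytes (25.0 against 3.85 TPM) and rods (2300 against 882 TPM) were also higher with Il20ra. Those of pericytes (4676 against 8143 TPM) and erythrocytes (885 against 3421 TPM) were lower, and those of Muller glia and astrocytes were similar (4785 against 4865 TPM). The part of these markers and of depth in the detection of Il20ra was not tested.

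Il20rb itself ranged widely between libraries. It was at 0 in T396F, T445F and T446M and had 1 count in each of T424M (0.109 CPM) and T425M (0.133 CPM), although T424M was the deepest library. The most counts were found in T393F (134), and the highest level in T392F (54.2 CPM, 82 counts). The shallow libraries T410F and T448M stood at 35.6 CPM and 40.9 CPM from 7 and 40 counts. Whether counts of 0 reflect reads that were not assigned to the mouse symbol was not tested.

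**Figure D2:**
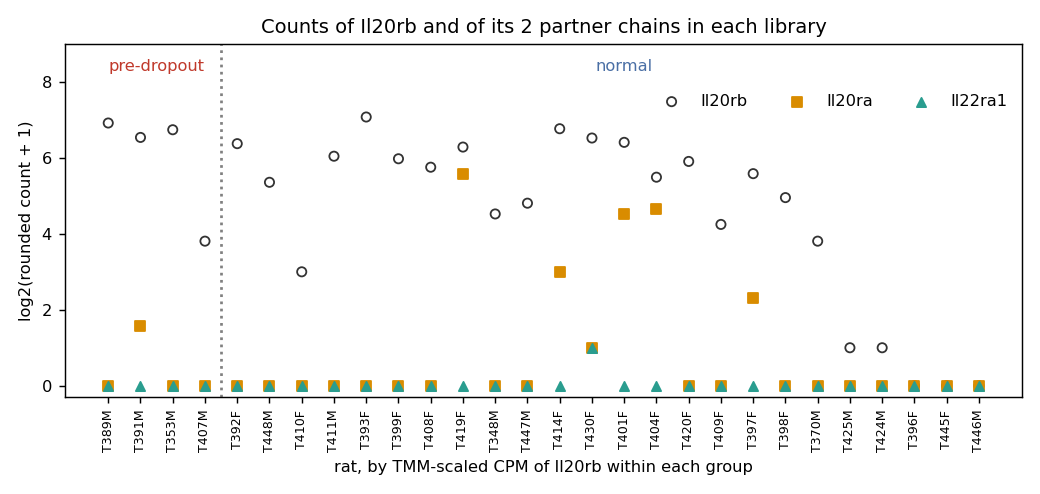
Counts of Il20rb (open circles), Il20ra (squares) and Il22ra1 (triangles) as log2(rounded count + 1) in each of 28 libraries, with pre-dropout rats on the left and rats ordered by the CPM of Il20rb within each group. Il20rb is above 0 in 25 libraries, Il20ra in 7 and Il22ra1 in 1.

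The ligands of the IL-20 receptors were nearly absent as well. Il19, Il24 and Il22 had 0 counts in all 28 libraries, as did Ifng, the ligand of Ifngr1 and Ifngr2. Il20 was counted in 4 libraries, with 83 counts in T398F, 10 in T401F and 1 each in T414F and the pre-dropout rat T389M. Il10, the ligand of Il10ra with Il10rb, was counted in T397F (20 counts) and T414F (3 counts). Ifnl2, an interferon lambda, had 15 counts in the pre-dropout rat T353M and 0 elsewhere. Of the 11 ligands listed, 7 stand in the table, and Ifnl3, Ifnb1, Ifna2 and Ifna4 were not analysed here. These ligands can also come from cells outside the vessels, which were not sampled.

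Both chains of the type I interferon receptor were counted in all 28 libraries, the only receptor of the 7 examined for which this held. Both chains of the interferon gamma receptor were counted in 21 libraries (3 pre-dropout and 18 normal), the other 7 lacking Ifngr2, the signal-transducing chain. Both chains of the IL-10 receptor were counted in 12 libraries, none of them pre-dropout, and Ifnlr1, the specific chain of the interferon lambda receptor, in 7 with Il10rb, none of them pre-dropout. The libraries with Ifnlr1 had a median of 8021624 counts and 20202 TPM of summed endothelial markers, against 3577117 counts and 34329 TPM without it. No pre-dropout library exceeded 4719197 counts, and the part of depth or of these markers was not tested. With at least 3 counts of each chain required, both were found in 5 libraries for Il20rb with Il20ra, 8 for Il10ra with Il10rb and 17 for Ifngr1 with Ifngr2.

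Within the paired receptors one chain was in excess. The TPM of Ifnar1 was 4.34 to 25.5 times that of Ifnar2 over 28 rats, with a median of 8.61. Ifngr1 was 2.52 to 701 times Ifngr2 over the 21 rats with both, with a median of 8.19.

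Ifnar1 and Ifnar2 were positively correlated over the rats, whereas Ifngr1 and Ifngr2 were not. On log2(CPM + 1) Ifnar1 and Ifnar2 had a Pearson's r of 0.524 (permutation p = 0.005, adjusted p = 0.009) and a Spearman's rho of 0.561 (permutation p = 0.002, adjusted p = 0.004, n = 28). Leaving out T401F and T398F, whose Ifnar1 lay farthest from its median, r was 0.524 (permutation p = 0.006). Ifngr1 and Ifngr2 had an r of -0.407 (permutation p = 0.033, adjusted p = 0.033) and a rho of -0.350 (permutation p = 0.068, adjusted p = 0.068). Leaving out T404F and T425M, r was -0.315 (permutation p = 0.117), which did not pass, and in the 26 libraries of at least 1e+06 counts it was -0.493 (permutation p = 0.011). Of 6 pairs set for correlation, which left out Ifnlr1 with Il10rb, these 2 had both chains counted in at least 14 libraries and were computed. Members that are not partners had a rho of similar size, with 0.511 for Il10rb and Ifnar2 and 0.495 for Ifnar1 and Ifngr1. Others had less, with -0.190 for Il20rb and Ifngr1. The correlation of Ifnar1 with Ifnar2 was thus not particular to partner chains, and its place among all gene pairs was not computed. All values share the library as their source, and labels give no batch within which to repeat them.

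No member was called between pre-dropout and normal rats. The filter on low counts left 7 of the 9 members in the test, without Il20ra and Il22ra1. Called genes (more than 2-fold, adjusted p under 0.05, edgeR's quasi-likelihood test) made up 0% of 13800 genes tested and 0 of 7 members. An unadjusted p under 0.05 was found for 2.86% of all genes (394) and for 1 of 7 members, Il10ra. The fitted log2 fold change was above 0 in 6 of 7 members, with a median of 0.44 beside -0.13 over all genes tested. Il20rb was one of the genes that the study selected on these rats, so its direction is no independent evidence. The study made its selection with EBSeq on genome-mapped counts. The counts used here were taken as output of a different, comparative pipeline and tested with edgeR, so values and test both differ.

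Il20rb stood at 25.2 CPM in T353M, 27.7 CPM in T389M and 27.4 CPM in T391M but at 5.63 CPM in T407M, against a lowest of 0, a median of 10.2 and a highest of 54.2 CPM in normal rats. Thus 3 pre-dropout rats lay close together above the normal median and 1 lay below it, and the groups overlapped, with 3 normal rats above all pre-dropout rats. The mean was 21.5 ± 10.6 CPM (SD, n = 4) in pre-dropout and 12.98 ± 13.6 CPM (SD, n = 24) in normal rats. The fitted difference was 0.75 on the log2 scale (standard error 1.08, adjusted p = 0.99999, edgeR), 1.15 without T407M and 0.98 within males only. Among the pre-dropout rats T407M also had the highest summed markers of erythrocytes (12446 TPM), rods (1287 TPM), Muller glia and astrocytes (5870 TPM) and retinal pigment epithelium (671 TPM). The same held for surface epithelium (179 TPM), microglia and macrophages (45.8 TPM) and other leukocytes (22.5 TPM). Its summed endothelial markers (19606 TPM) and its depth (2669910 counts) were the lowest of the pre-dropout rats. The part of these markers and of depth in its low Il20rb was not tested.

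Il10rb, the shared chain of the IL-10, IL-22 and interferon lambda receptors, was the member with every pre-dropout value above the median of normal rats. It stood at 154 CPM in T353M, 176 CPM in T389M, 114 CPM in T391M and 139.8 CPM in T407M, against 20.3, 85.6 and 215 CPM (lowest, median and highest) in normal rats. The ranges overlapped, since T399F exceeded all pre-dropout rats. How many of all genes had every pre-dropout value above the normal median was not computed, so this pattern is a description only. The fitted difference was 0.67 on the log2 scale (standard error 0.38, unadjusted p = 0.0847, adjusted p = 0.99999, edgeR), and 0.60 within males only.

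Il10ra, the chain that binds IL-10, had 0 counts in all 4 pre-dropout libraries. In normal rats it had 363 counts in all, found in 12 of 24 libraries, with a lowest of 0, a median of 0.067 and a highest of 24.6 CPM. The 12 normal rats without a count overlapped with all pre-dropout rats. Pooled over the groups, Il10ra was at least 15.3-fold lower in pre-dropout rats, by counting error only and not by the spread between rats. The floor was 3 counts over the whole pre-dropout group (0.206 CPM), against 3.14 CPM in normal rats. The normal value pools both sexes, and its largest counts came from females (104 in T414F, 81 in T398F and 48 in T393F). Normal males with a count had 27 in T446M, 24 in T448M, 2 in T370M and 1 in T425M. No bound within males was computed. The unadjusted p was 0.0186 and the adjusted p 0.99999 (edgeR). The libraries with Il10ra had a median of 20298 TPM of summed endothelial markers and 6391744 counts, against 35059 TPM and 2784057 counts in those without it, and the part of either was not tested.

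Both interferon receptors differed by less than the spread between rats, and within males the difference in both chains of the type I receptor was near 0. Ifnar1 stood at 1044, 1030, 674 and 639 CPM in T353M, T389M, T391M and T407M, against 269, 662 and 1369 CPM (lowest, median and highest) in normal rats. On the log2 scale the fitted difference was 0.30 (standard error 0.29, adjusted p = 0.99999, edgeR), 0.01 with sex as a covariate and -0.01 within males only. Ifnar2, its partner, stood at 137, 130, 78.7 and 52.4 CPM in the same rats, against 25.4, 66.7 and 295 CPM in normal rats. The difference was 0.44 (standard error 0.43), and 0.0036 within males only. In both genes T424M was the highest normal rat, and without it the log2 fold changes were 0.36 for Ifnar1 and 0.65 for Ifnar2.

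Ifngr1, the ligand-binding chain for interferon gamma, stood at 256, 127, 175 and 220 CPM in T353M, T389M, T391M and T407M, against 91.3, 151 and 288 CPM in normal rats, with a log2 fold change of 0.30 (standard error 0.30). Ifngr2 stood at 21.2, 37.9, 20.3 and 0 CPM in the same rats, against 0, 4.70 and 28.9 CPM in normal rats. T389M exceeded every normal rat, while T407M had no count, as had 6 normal rats. The fitted difference of Ifngr2 was 1.30 on the log2 scale (standard error 1.30, adjusted p = 0.99999, edgeR), the largest increase fitted among the 7 members tested, and ranged from 0.83 to 1.80 as each pre-dropout rat was left out.

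With limma-voom and sample quality weights 6 of 7 members had an unadjusted p under 0.05, beside 9.46% of all genes, and 0 were called, with adjusted p-values of 0.306 to 0.761. Of the other genes of these pathways (3 receptors, 7 ligands in the table, 4 kinases, 8 STATs and partner, 9 inhibitors and 12 targets), none was called between pre-dropout and normal rats.

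**Figure D3:**
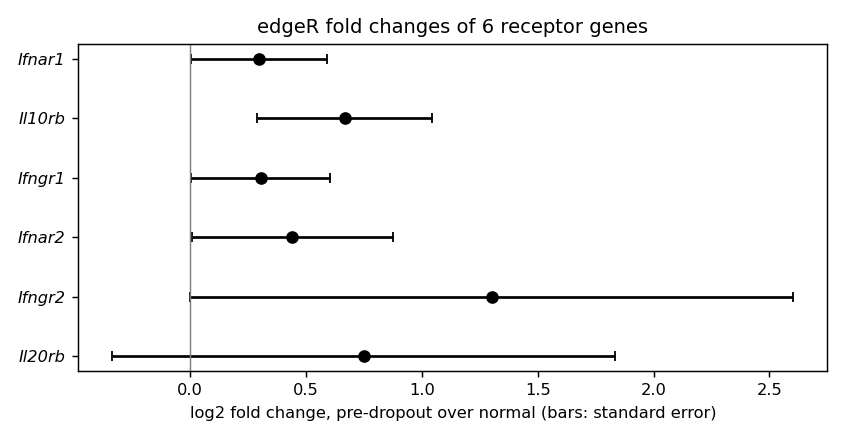
Log2 fold changes of 6 receptor genes, pre-dropout over normal rats, from edgeR with bars of 1 standard error, in order of median TPM from the top. Ifngr2 has the widest bar (1.30 with a standard error of 1.30), and no gene passed the test.

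Density within the normal range gave no called slope for any member. The slope per 5 acellular capillaries per square millimeter, with sex as a covariate, was called for 0% of 13677 genes and 0 of 7 members. It was -0.42 for Ifnar1 (standard error 0.26, unadjusted p = 0.122, edgeR), 1.66 for Ifngr2 (standard error 1.60) and -0.12 for Il20rb (standard error 1.06). The median slope of the members was 0.04 on the log2 scale, beside 0.09 over all genes tested. None of the other pathway genes was called along density or along glucose.

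Blood glucose likewise gave no called slope. Ifngr2 was counted in every rat above 200 mg/dL, as were Ifnar1, Ifnar2, Ifngr1 and Il10rb, which were counted in all 28 rats. The slope per 100 mg/dL was called for 0% of 13800 genes and 0 of 7 members. Ifngr2 had 7.47 CPM in T370M, 20.3 CPM in T391M, 28.4 CPM in T392F, 28.9 CPM in T446M and 37.9 CPM in T389M, against 0, 0.894 and 21.2 CPM (lowest, median and highest) in the 23 rats up to 200 mg/dL, where 16 had a count. All 5 rats above 200 mg/dL lay above the median of the others, and the ranges overlapped. The share of all genes with the same pattern was not computed, so it is a description only. The means were 24.6 ± 11.4 CPM (SD, n = 5) above 200 mg/dL and 6.51 ± 7.90 CPM (SD, n = 23) up to it. The slope was 0.59 (standard error 0.40, unadjusted p = 0.141, adjusted p = 1, edgeR), which did not pass.

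Il10rb and Il20rb gave smaller slopes. That of Il10rb was 0.15 (standard error 0.13, unadjusted p = 0.229) and that of Il20rb 0.31 (standard error 0.35, unadjusted p = 0.373, edgeR). Il20rb held both extremes among the rats above 200 mg/dL, with 54.2 CPM in T392F and 0 in T446M.

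**Figure D4:**
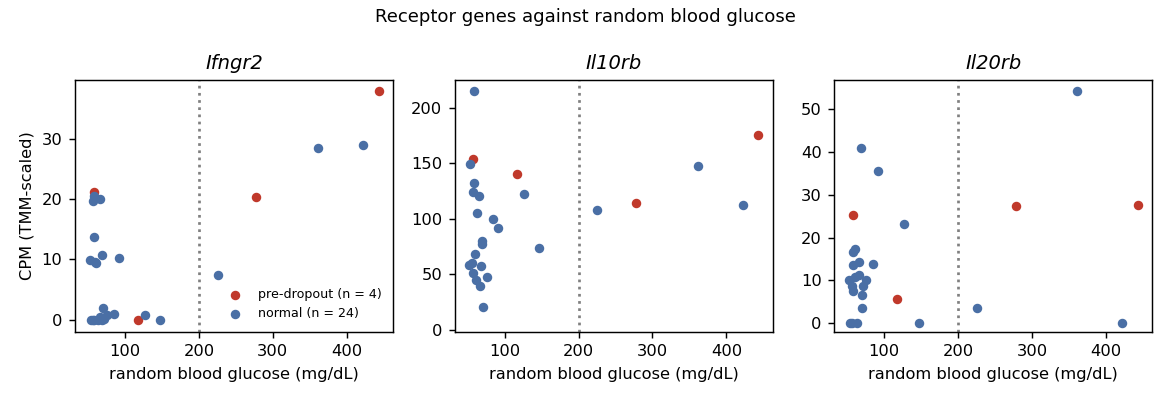
Levels of Ifngr2, Il10rb and Il20rb (CPM) by random blood glucose (mg/dL), where each point is a rat coloured by density group, with a dotted line at 200 mg/dL. Ifngr2 lies between 7.47 and 37.9 CPM in the 5 rats to the right of the line, while 7 rats to its left have no count.

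Male rats of normal density had more Ifnar1 and Ifnar2 than females on average, by amounts that failed the correction. Called genes made up 0.0247% of 12162 genes (3 genes) and 0 of 6 members tested. Ifnar1 averaged 839 ± 304 CPM in males (SD, n = 8) and 614 ± 197 CPM in females (SD, n = 16), and the fitted difference was 0.55 on the log2 scale (standard error 0.25, unadjusted p = 0.0353, adjusted p = 0.995, edgeR). Ifnar2 averaged 94.98 ± 84.2 CPM in males and 62.3 ± 24.9 CPM in females, with a difference of 0.75 (standard error 0.37, unadjusted p = 0.0501, adjusted p = 0.995, edgeR), with T424M the highest male at 295 CPM.

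The members were then set against the cell type markers of each library, as a mean of log2(CPM + 1) over a marker list that holds none of them. Ifnar1, Ifnar2 and Ifngr1 rose with the endothelial markers and Il10ra fell. Called slopes made up 9.94% of 13024 genes and 4 of 7 members, and the median slope was 0.53 in the members, beside -0.21 over all genes tested. The slope of Ifnar1 was 0.83 per log2 unit of endothelial markers (standard error 0.16, adjusted p = 0.000366, edgeR), that of Ifnar2 0.79 (standard error 0.26, adjusted p = 0.0477) and that of Ifngr1 0.59 (standard error 0.19, adjusted p = 0.0336). That of Il10ra was -4.98 (standard error 1.38, adjusted p = 0.0154), and its counts lay mostly in the libraries with the lowest endothelial markers. Il10rb (0.53, standard error 0.28), Il20rb (0.44, standard error 0.85) and Ifngr2 (0.29, standard error 1.08) did not pass.

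These calls were not equally stable. Leaving out each rat in turn, chosen after seeing the data, Ifnar1 was called in all 28 fits (slopes 0.76 to 0.94) and Il10ra in the 27 fits that kept it, since without T401F it was not tested. Ifnar2 was called in 10 of 28 fits, those without T348M, T399F, T410F, T411M, T420F, T425M, T430F, T445F, T447M or T448M, and its slope fell to 0.48 without T424M (adjusted p = 0.313, edgeR). Ifngr1 lost its call in 10 fits, those without T353M, T370M, T397F, T401F, T404F, T410F, T414F, T419F, T424M or T425M (highest adjusted p = 0.0730, edgeR). With DESeq2's size factors, which moved the median slope of all genes to -0.38, and with sex as a covariate, only Ifnar1 and Il10ra of the members were called.

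Calls along the endothelial markers were also counted for the genes downstream of the receptors. Called as rising were 1 of 4 kinases, 1 of 7 STATs and partner, 3 of 11 targets and 0 of 7 inhibitors. None was called as falling, beside 9.94% of all genes called in either direction. Jak1, a kinase bound to these receptors, had a slope of 0.74 (standard error 0.18), and Irf9, a DNA-binding partner of STAT factors, 1.28 (standard error 0.28). The 3 interferon and STAT targets were Ifit1 (1.45), Oas1a (1.25) and Mx1 (0.95). F3, tissue factor, a class II receptor of the clotting pathway, fell by 2.11 per unit (standard error 0.60). Of the marker lists, 6 of 7 pericyte markers were called as rising and 7 of 10 rod markers as falling with the endothelial markers.

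With the microglia and macrophage markers, called slopes made up 5.4% of 13800 genes and 1 of 7 members, Ifnar1, which fell (-0.57, standard error 0.16, adjusted p = 0.0318, edgeR). The call was lost without T397F, T401F or T414F, whose absence gave adjusted p-values of up to 0.121 (edgeR). Jak1, Ifit1 and Mx1 were called as falling as well. So were 9 of 11 endothelial markers, with 1 called as rising. Of the microglia and macrophage markers themselves, 7 were tested and 2 were called as rising. Il10ra, which macrophages express, had a slope of 0.54 (standard error 1.10), and Il20rb one of -0.57 (standard error 0.69). With the rod markers, called slopes made up 4.64% of 13407 genes and 1 of 7 members, again Ifnar1 (-0.22, standard error 0.06, adjusted p = 0.0242, edgeR), which was lost without T401F or T424M (highest adjusted p = 0.0610, edgeR). Ifit1 and Oas1a fell with it, as did 8 of 11 endothelial markers, with 1 called as rising. The marker lists were thus not separate from each other. Whether Ifnar1 fell with either list apart from the endothelial markers was not tested. Both calls of Ifnar1 were also lost with DESeq2's size factors and with sex as a covariate, giving adjusted p-values of 0.0734 and 0.120 for the microglia and macrophage markers and 0.0532 and 0.0678 for the rod markers (edgeR).

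**Figure D5:**
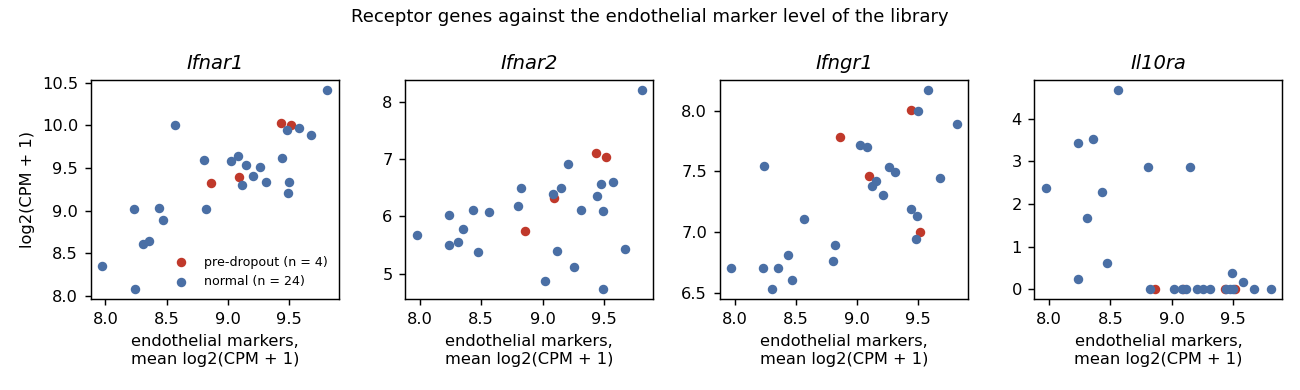
Log2(CPM + 1) of Ifnar1, Ifnar2, Ifngr1 and Il10ra against the mean log2(CPM + 1) of 11 endothelial markers, 1 point per rat, by density group. The slopes are 0.83, 0.79 and 0.59 for the first 3 genes and -4.98 for Il10ra, which is at 0 in 16 rats.

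Detection of the kinases and transcription factors of these receptors varied by gene. Jak1 was counted in all 28, with a median of 30.8 TPM, Jak2 in 27 (30.9 TPM) and Tyk2 in 23 (6.39 TPM). Stat2, a factor of the type I interferon receptor, was counted in 25 (12.6 TPM) and Stat3, the main factor of the IL-10 and IL-20 receptors, in 28 (23.8 TPM). Irf9 had a median of 170 TPM. Jak3 was counted in 26 libraries (2.37 TPM), Stat5a in 16 and Stat4 in 7. Of the inhibitors, Socs3 was counted in 19 libraries and Socs1 in 1.

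Among 11962 genes with a count in at least 14 libraries, the 5 whose log2(CPM + 1) ranked most like that of Il20rb over the 28 libraries were Alpk3 (Spearman's rho 0.668), Dnaaf5 (0.662), Arhgap1 (0.628), Nup214 (0.625) and Bbc3 (0.622). The median rho of all candidates was -0.023 and the 95% quantile 0.314. Of the members, Ifngr2 had a rho of 0.469 to Il20rb, at rank 86, followed by Il10rb (0.215), Ifnar1 (0.193), Ifnar2 (0.108) and Ifngr1 (-0.190). These values are descriptions over libraries that differ in depth.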

How the data were processed

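RNA of the retinal vasculature, with neurons washed off after osmotic lysis, was sequenced per rat. The expected counts and TPM that the authors deposited name genes by mouse symbol and were taken as output of their comparative pipeline, CRSP. Aligner and build are not given in the sources used here. Genome-mapped values were not used here, and no sequence or coordinate is printed.

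Expected counts were rounded and compared with edgeR 4.0.16 (R 4.3.3, TMM, minimum count 10, Benjamini-Hochberg over all genes tested). Alternatives used limma 3.58.1 and DESeq2 1.42.0. Correlations used 100000 permutations. The scripts were tested on simulated data, where recovery of set changes was required only at a dispersion lower than that of these data. The groups follow the density limits of the study (17 to 18, and below 16, per square millimeter), and its tool, EBSeq, was not used. No batch is labelled, and 1 library per rat means that p-values measure the spread between rats.

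The members and lists were chosen with earlier results of these data known. Named genes are all members, called pathway genes, listed markers and the 5 genes most like Il20rb. A further item of the lists is not reported here.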

Additional observations from a re-analysis of the deposited data

Results flagged for a closer look

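Within the pre-dropout group, 2 member values stood apart from the other 3 rats by Dixon's criterion. Il20rb was lowest in T407M, at 5.63 CPM, and chance gives such a gap in about 1 in 20 groups for a single gene. The criterion was applied to every member that varied within the group, so a gap in some member is more likely than that. Il20ra was highest in T391M, at 0.596 CPM, from 2 counts, with 0 counts in the other 3 rats. Any gene counted in 1 of 4 rats meets the criterion, so the share of 1 in 20 does not apply to Il20ra.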

How the results depend on the processing

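No paired analysis was possible because the labels give no replicate numbers shared between the groups. In all, 0 members were called between pre-dropout and normal rats under any alternative run, including each pre-dropout rat left out, and 0 for density, glucose and sex. Over all genes, the pre-dropout comparison called 72 without the filter, 4 with DESeq2 and 4 with limma-voom, the density slope 45 and 18 (no filter, DESeq2), the glucose slope 152, 56 and 2 (no filter, DESeq2, normal-density rats only), and sex 74 with DESeq2. With the endothelial markers, 2 members were called with DESeq2's size factors and 2 with sex as a covariate, and 5 of 9 members and 3661 genes without the filter. Leaving out each rat gave 1 to 4 members and 851 to 1639 genes. With the microglia and macrophage markers, 0 members were called with DESeq2's size factors, 0 with sex and 2 without the filter, and 2340 genes without the filter and 383 with sex, while leaving out each rat gave 0 to 1 members and 386 to 1023 genes. With the rod markers, 0 members were called with size factors, 0 with sex and 2 without the filter, and 2789 genes without the filter, and leaving out each rat gave 0 to 1 members and 373 to 797 genes. Among the member values recomputed, signs turned for some that were not called, namely Ifnar1 within males (-0.0103), the density slope of Il20rb in all 28 rats (0.28) and in libraries of at least 1e+06 counts (0.11), the rod slope of Il20rb in those libraries (0.0171), the endothelial slope of Ifngr2 without T389M (-0.0844, up to 0.558 without T404F) and the rod slope of Il10ra without T414F (-0.0194, up to 1.10 without T448M). At 3 counts, 0 libraries held both chains of the type II IL-20 receptor and 0 both of the IL-22 receptor. The correlation of Ifngr1 with Ifngr2 was -0.315 without the 2 farthest rats, -0.493 in libraries of at least 1e+06 counts and -0.465 on log2(CPM + 0.1). The cause of these changes was not tested. A count of 0 allows up to 19.6 CPM in the shallowest library, for any gene.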

Other observations

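Il20 and Ifnlr1 had their most counts in the same library, T398F, with 83 and 85 counts. Il22ra2, the soluble decoy receptor for IL-22, had 22 counts in T404F, 2 in T424M and 1 in the pre-dropout rat T389M.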
